A study of Mus musculus with 24 samples.

Results

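The 10 genes that load and release the lytic granule were followed across 4 populations of natural killer (NK) cells sorted from mouse tumours. Members were taken by symbol from the count table, and all 10 of the listed symbols were found among its 53465 gene identifiers. They are Prf1, Srgn, Nkg7, Lamp1, Lamp2, Rab27a, Unc13d, Stx11, Stxbp2 and Lyst, and all 10 passed the filter on low counts that left 10536 genes to test. The libraries came from female wild-type B6 mice that carried B16F10 melanoma, a transplantable mouse line, under the skin of the flank for 14 days. The gates used 3 surface proteins: CD11b, the integrin subunit that marks mature NK cells, CD27, found on less mature ones, and CD69, which appears on activation. Each of the 4 groups had 6 libraries of 100 sorted cells, 24 in all: CD11b+CD69- and CD11b+CD69+ cells, then CD27+CD69- and also CD27+CD69+ cells. Values given for 4 populations are always in this order. No group had another genotype, agent or treatment, so every group shared the tumour line, the sex and the day. The labels name the cells melanoma and the tissue tumour, while the design names NK cells. Whether the 6 libraries of a group are from separate animals is not stated, and p-values therefore reflect only the spread between these libraries, which may be technical.

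NK cells kill by secreting specialised lysosomes called lytic granules onto a target cell. Perforin, the product of Prf1, opens pores in the target membrane through which granzymes enter, and serglycin, the product of Srgn, is the proteoglycan core that holds both inside the granule. To be released, a granule is matured with the help of LYST, moved and docked by RAB27A, primed by MUNC13-4 (Unc13d) and fused by syntaxin-11 (Stx11) with its partner MUNC18-2 (Stxbp2), and inherited loss of these genes or of perforin causes immune disease. LAMP1 and LAMP2 coat the granule membrane, and LAMP1 on the cell surface is the usual readout of degranulation. NKG7 is a granule membrane protein needed for full degranulation.

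Promoter sequences are shown for 4 members whose expression or letters are described in the results, because they hold the motif matches counted after them. Prf1 is on chromosome 10 at 61297833-61304680 on the plus strand of GRCm38 (gene model of GENCODE M21), and Srgn lies 1.19 Mb away on the same chromosome. Nkg7 is on chromosome 7 at 43437073-43438249 and Lamp1 on chromosome 8 at 13159161-13175338, both on the plus strand. Rab27a is on chromosome 9 at 73044854-73097629, also on the plus strand. The sequences are from RefSeq (GRCm38.p6), in which 9 of the 10 members had an entry, and each of the 3 longer windows printed ends before the first transcript start of the gene model. Windows are chr10:61297586-61297832 for Prf1, chr7:43436888-43437072 for Nkg7 and chr8:13158911-13159160 for Lamp1. Shorter stretches are chr7:43437115-43437137 of Nkg7 and chr9:73044668-73044694 of Rab27a. All are plus strand. Capitals mark matches on either strand to the RUNX letters TGTGGT, the T-box letters GGTGTGA or the E-box letters CACGTG, which reads the same on both strands. The RUNX and T-box families include regulators of NK cells, and the CACGTG E-box is bound by regulators of lysosomal genes. In the 2 short stretches only the T-box match is in capitals.
Prf1 promoter: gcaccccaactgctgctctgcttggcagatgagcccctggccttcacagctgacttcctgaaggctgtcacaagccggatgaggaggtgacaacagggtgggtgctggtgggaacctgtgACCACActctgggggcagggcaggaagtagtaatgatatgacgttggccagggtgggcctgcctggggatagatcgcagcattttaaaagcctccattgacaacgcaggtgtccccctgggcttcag
Nkg7 promoter: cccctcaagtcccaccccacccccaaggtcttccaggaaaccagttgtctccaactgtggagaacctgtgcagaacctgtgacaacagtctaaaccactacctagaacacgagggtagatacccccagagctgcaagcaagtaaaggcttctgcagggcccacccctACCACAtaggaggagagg
Nkg7 T-box stretch: gggtagggaaGGTGTGAgaagaa
Rab27a T-box stretch: tctgtggttcTCACACCtttcagaagg
Lamp1 promoter: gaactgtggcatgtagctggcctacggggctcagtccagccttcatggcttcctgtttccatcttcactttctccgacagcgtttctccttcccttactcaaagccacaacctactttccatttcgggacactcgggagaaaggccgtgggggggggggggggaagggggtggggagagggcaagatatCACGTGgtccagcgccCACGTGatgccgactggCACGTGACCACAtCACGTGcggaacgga
The Lamp1 window held 4 copies of CACGTG, at 61, 45, 28 and 15 bases before the RefSeq start, with a RUNX match between the last 2 that abuts the third. Matches were counted per promoter, over the 250 bases before each RefSeq start, and the 9 members with an entry have 11 such promoters, 2 each for Srgn and Rab27a. CACGTG was present in 6.02% of all 32851 promoters and in 3 of the 11 (Lamp1, Stxbp2 and the downstream promoter of Rab27a at chr9:73063898, inside the gene model). The T-box letters were present in 3.33% of promoters and in 2 of the 11, Nkg7 at 13 bases and the upstream promoter of Rab27a at 132 bases before the RefSeq start. The RefSeq start of Nkg7 lies downstream of the start of the gene model above, so its T-box match is inside that model. The RUNX letters were present in 14% of promoters and in 5 of the 11 (Prf1, Nkg7, Lamp1, the upstream promoter of Rab27a and the downstream promoter of Srgn, inside the gene model). The motifs were chosen after expression values were seen. A match is a string of letters and was not tested as a binding site.

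Library totals ran from 1213914 to 2671533 counts (median 2213433), so the floor of 3 counts stood at 1.12 to 2.47 CPM, the unit of counts relative to the library total. All CPM are scaled by TMM, which corrects library size for composition. Intervals of log2 differences come from the SE of the edgeR fit, which takes in the spread between libraries. The sort markers followed the gates as means: Itgam, which encodes CD11b, was at 89.7 ± 27.6, 48.6 ± 11.3, 12.2 ± 6.64 and 4.92 ± 5.19 CPM in the 4 populations (SD, n = 6 each, as for all CPM given as mean ± SD). Cd27 was at 87.9 ± 38.6, 141 ± 36.4, 277 ± 58.4 and 342 ± 28.9 CPM, and Cd69 at 607 ± 253, 1110 ± 59.4, 735 ± 188 and 1170 ± 129 CPM. NK markers (Ncr1, Klrb1c, Klrk1, Eomes, Tbx21, Klre1) were detected in every group and summed to 8440 to 10000 CPM in CD11b+ and to 3960 to 7670 CPM in CD27+ libraries. The CD27+CD69- libraries stood apart. In 5 of 6 of them, 6 fibroblast markers (collagens, Dcn, Pdgfra, Pdgfrb) summed to 1410 to 6830 CPM, with none in replicate 5, against at most 8.02 CPM in any other library. Melanoma markers summed to 1.37 to 242 CPM in 5 of these libraries and to 5730 CPM in replicate 6, against at most 51.8 CPM in the other populations. The 6 T cell markers (Cd3d, Cd3e, Cd3g, Cd4, Cd8a, Cd8b1) summed to 658 ± 304 CPM in CD27+CD69- and 1130 ± 337 CPM in CD27+CD69+ libraries. Their means in CD11b+ libraries were 6.93 and 55.1 CPM. Cd4 had no counts in CD27+CD69+ libraries, the group with the highest sum, and which cells carried these markers was not tested. The part of other cells, and of the lower NK sum, in the members' differences between CD11b+ and CD27+ cells was not tested. In bulk libraries fewer cells of a type and less RNA per cell cannot be told apart.

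Across the 4 populations, 7 of the 10 members differed (edgeR quasi-likelihood F-test, Benjamini-Hochberg over all genes tested, adjusted p under 0.05), where 14.1% of all genes did. Leaving out the 5 fibroblast-bearing CD27+CD69- libraries leaves 1 library in that group, so no count of calls is given without them. Members were chosen with earlier results of these data known, so the share over all genes is a description, not a test. The 7 were Prf1, Nkg7, Srgn, Lamp1, Lamp2, Unc13d and Stx11, with Prf1 ranked 4 and Nkg7 ranked 43 of 10536 genes by p. Rab27a (adjusted p = 0.51), Lyst (0.232) and Stxbp2 (0.868) did not pass. Together the members took 1.19%, 0.963%, 0.629% and 0.7% of all counts in the 4 populations. Prf1 made up 30.7 ± 3%, 22.6 ± 2.74%, 9.99 ± 3.59% and 9.37 ± 1.8% of those member counts.

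**Figure D1:**
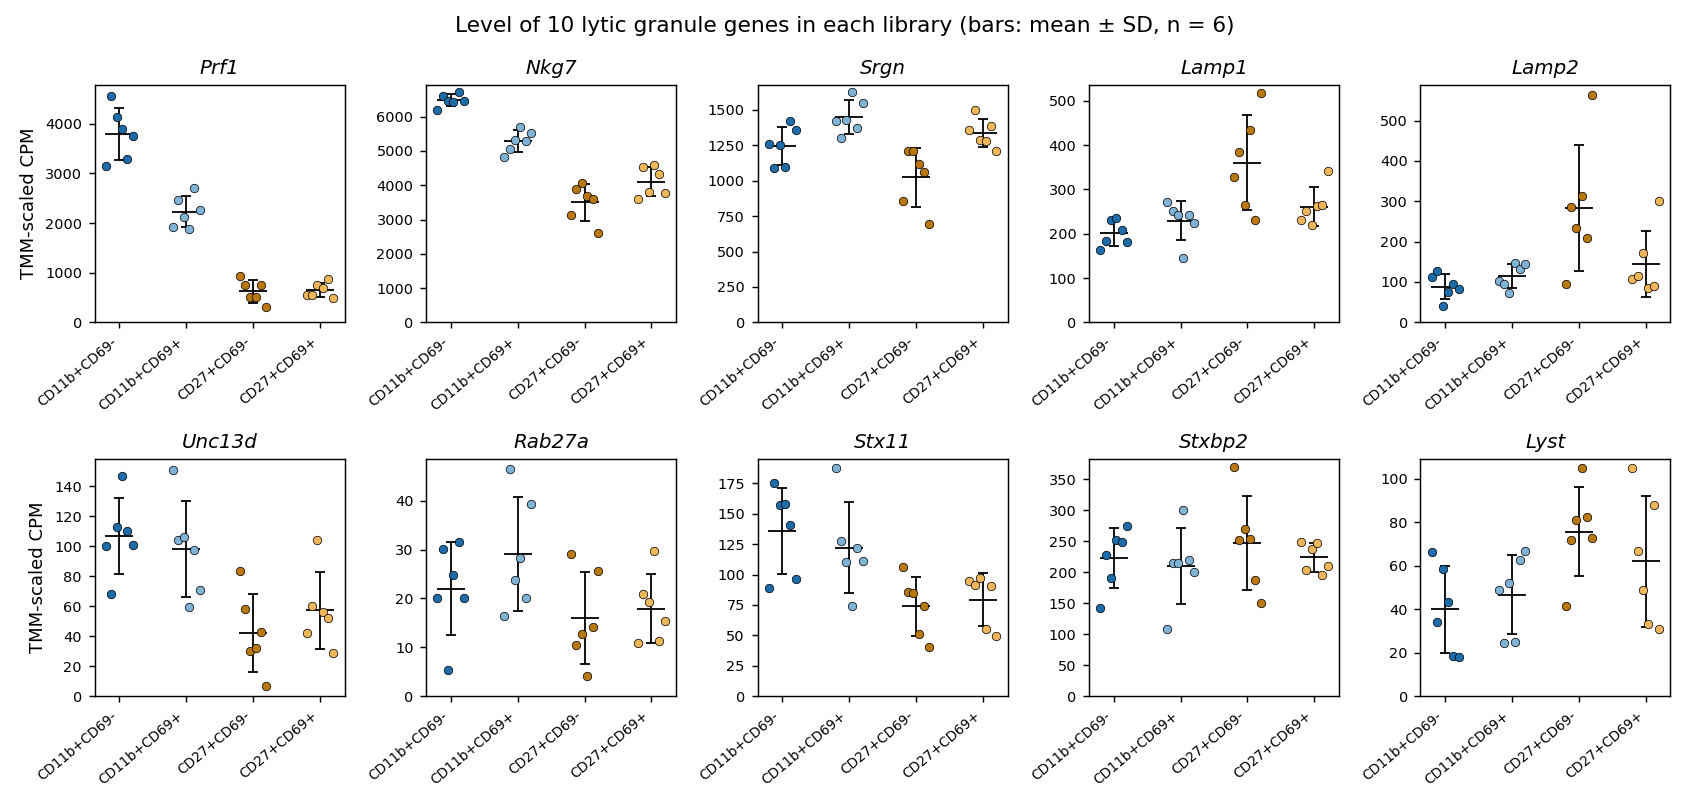
TMM-scaled CPM (y axis, linear, starting at 0) of each of the 10 genes in the 24 libraries, 1 point per library, grouped by population on the x axis, with bars for mean ± SD (n = 6). Prf1 steps down from 3800 to 2230 to about the same low level in both CD27+ populations, while Stxbp2 stays between 210 and 247 on average and Lamp1 and Lamp2 are highest in CD27+CD69-.

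Prf1, the pore former, had the largest difference of the 10 in both contrasts of CD27+ with CD11b+ cells. Its 6 CD11b+CD69- libraries read 3160, 4570, 4140, 3890, 3300 and 3750 CPM in order of replicate number. Those of CD11b+CD69+ read 1920, 2470, 2130, 1890, 2700 and 2260 CPM. In CD27+CD69- cells the values were 944, 752, 514, 507, 743 and 302 CPM, and in CD27+CD69+ cells 546, 557, 745, 696, 879 and 496 CPM. Every CD11b+ library was thus above every CD27+ library, the 2 CD11b+ populations did not overlap each other, and the 2 CD27+ populations did. These levels rest on 366 to 10190 Prf1 counts per library.

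Between CD27+CD69- and CD11b+CD69- cells, Prf1 was 6.05-fold lower (edgeR log2 difference -2.60, SE 0.19, 95% interval -3.00 to -2.19, adjusted p = 9.08e-10, lower in 6 of 6 libraries, counted here and elsewhere against the median of the other group). By p it ranked 2 of 10536 genes in that comparison. Between the CD69+ populations the difference was -1.77 (SE 0.19, interval -2.16 to -1.38, adjusted p = 7.97e-07 by edgeR, rank 7, lower in 6 of 6), or 3.41-fold. Within CD11b+ cells, those with CD69 on the surface had 1.71-fold less Prf1 (log2 difference -0.77, SE 0.18, interval -1.15 to -0.39, edgeR adjusted p = 0.016, lower in 6 of 6). That call ended when all libraries of replicate 2, 3 or 4 were left out (adjusted p from 0.0711 to 0.0936 by edgeR, log2 difference from -0.75 to -0.73) and without the filter on low counts (adjusted p = 0.0673), and held in each of the 24 fits without 1 library. Within CD27+ cells the difference by CD69 was 0.06, with an interval of -0.33 to 0.44 (edgeR adjusted p = 0.976). The CD69 difference in CD27+ cells minus that in CD11b+ cells was 0.83 (SE 0.26, interval 0.29 to 1.37, unadjusted p = 0.00343, adjusted p = 0.18 by edgeR), which did not pass over all genes.

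Srgn, the granule scaffold that binds perforin, passed in none of the 4 pairwise comparisons by edgeR with all libraries, with 2 at an unadjusted p under 0.05. Among CD11b+ libraries it stood at 1250 ± 132 CPM without CD69 (1090 to 1420, median 1250) and 1450 ± 119 CPM with it (1300 to 1630, median 1430). Among CD27+ libraries it stood at 1020 ± 209 CPM without CD69 (692 to 1210, median 1090) and 1340 ± 103 CPM with it (1210 to 1500, median 1330). The highest CD27+CD69- library and the lowest CD27+CD69+ library both round to 1210 CPM, yet the 2 groups did not overlap. In CD27+ cells Srgn was 0.39 higher with CD69 (SE 0.11, interval 0.16 to 0.62, unadjusted p = 0.0014, higher in 6 of 6), which missed the threshold over all genes (edgeR adjusted p = 0.0613) and passed it with DESeq2 (0.0354) and limma-voom (0.0356). In CD11b+ cells the CD69 difference was 0.22 (edgeR adjusted p = 0.379). CD27+ minus CD11b+ differences were -0.28 (adjusted p = 0.0924 by edgeR) in CD69- and -0.11 (0.81) in CD69+ cells. The first passed without CD27+CD69- replicate 2 (-0.34, edgeR adjusted p = 0.0483) and without all libraries of replicate 2 (-0.38, 0.0417). The CD69 difference in CD27+ cells passed without any 1 of CD11b+CD69- replicates 2 and 5, CD27+CD69- replicates 2 and 3 and CD27+CD69+ replicate 6 (edgeR adjusted p from 0.0392 to 0.0465).

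Measured against Srgn within each library, Prf1 counts were 310 ± 70.4%, 155 ± 31.7%, 62.4 ± 26.2% and 48.9 ± 10.9% of Srgn counts in the 4 populations. Levels can be ranked between genes only per length of transcript. Per kilobase of exon, Prf1 was at 1470, 861, 243 and 253 CPM and Srgn at 568, 660, 466 and 611 CPM. Prf1 was above Srgn per kilobase in 6 of 6 CD11b+CD69- libraries, in 5 of 6 CD11b+CD69+ libraries and in 0 of 6 of either CD27+ population. With the longest transcript as length those counts were 6, 4, 0 and 0.

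Nkg7, the granule membrane protein, was the most abundant member per kilobase in all 24 libraries. It ranked 3, 4, 5 and 4 of 10526 genes with a length in the 4 populations, at 7090, 5780, 3830 and 4490 CPM per kilobase, while Prf1 ranked 24, 49, 218 and 233. Its CD11b+CD69- libraries read 6190, 6590, 6470, 6430, 6720 and 6470 CPM. Those of CD11b+CD69+ read 4820, 5070, 5330, 5690, 5300 and 5510 CPM. In CD27+CD69- cells the values were 3120, 3880, 4070, 3690, 3600 and 2620 CPM, and in CD27+CD69+ cells 3600, 4520, 3800, 4590, 4340 and 3780 CPM. The coefficient of variation was 2.7% in CD11b+CD69- libraries, the lowest of any member in any population, and 15.3% in CD27+CD69- libraries.

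From high to low, the Nkg7 groups were CD11b+ without CD69, CD11b+ with CD69, CD27+ with CD69 and CD27+ without, and only the last 2 overlapped. CD27+ cells had 1.85-fold less Nkg7 than CD11b+ cells without CD69 (log2 difference -0.89, SE 0.09, interval -1.07 to -0.71, edgeR adjusted p = 5.31e-08, rank 13, lower in 6 of 6). With CD69 they had 1.29-fold less (-0.36, SE 0.09, interval -0.54 to -0.19, edgeR adjusted p = 0.0175, lower in 6 of 6). That second call ended without replicate 1, 3, 4 or 5 (edgeR adjusted p from 0.0513 to 0.0809, log2 difference from -0.38 to -0.34), and without any 1 of CD11b+CD69+ replicate 4 (adjusted p = 0.0527) and CD27+CD69+ replicates 1 and 6 (0.0605 and 0.0522). By CD69, Nkg7 differed by -0.29 in CD11b+ cells (SE 0.09, interval -0.47 to -0.12, edgeR adjusted p = 0.0612, 6 of 6 lower) and by 0.23 in CD27+ cells (SE 0.09, interval 0.05 to 0.41, adjusted p = 0.214, 5 of 6 higher). The CD11b+ difference passed in 7 of the alternative analyses other than leaving out 1 library or replicate number (adjusted p from 0.00152 to 0.0487).

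Nkg7 was the 1 member whose CD69 difference was itself different between CD27+ and CD11b+ cells, where 0.579% of all genes passed, 0.237% with a higher and 0.342% with a lower value in CD27+ cells. The difference of differences was 0.52 on the log2 scale (SE 0.12, interval 0.27 to 0.78, adjusted p = 0.0387 by edgeR). The call was close to the threshold, and it ended in 13 of the 24 fits that left out 1 library (edgeR adjusted p from 0.0511 to 0.0767), with the value between 0.49 and 0.53. It also ended in 5 of the 6 that left out a replicate number (0.0694 to 0.173) and without the filter on low counts (0.06). With the 5 fibroblast-bearing CD27+CD69- libraries left out, which leaves 1 library in that group, the value was 0.47. Relative to Nkg7, Prf1 counts were 58.7 ± 7.73% (49.1 to 69.5%), 42.2 ± 6.47% (33.3 to 50.9%), 18 ± 7.04% (11.5 to 30.2%) and 15.9 ± 3.31% (12.3 to 20.3%) in the 4 populations. The CD11b+ and CD27+ ranges of this ratio did not overlap.

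**Figure D2:**
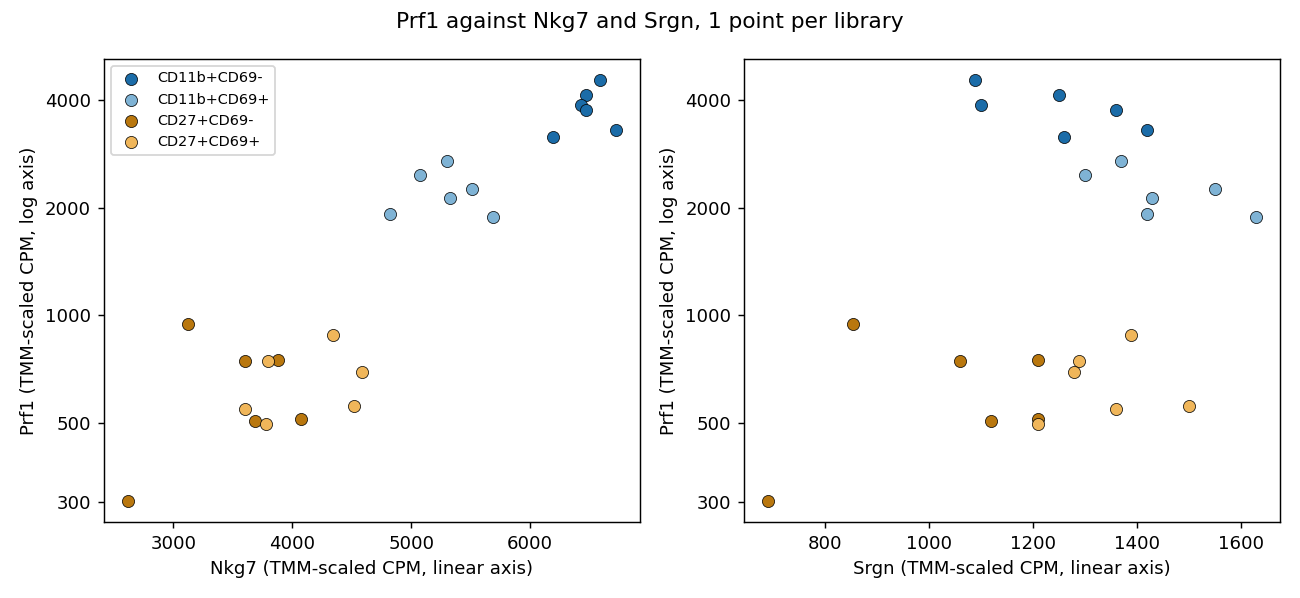
Prf1 (y axis, TMM-scaled CPM, log axis) against Nkg7 (left) and Srgn (right; both x axes TMM-scaled CPM, linear), 1 point per library coloured by population. CD11b+ libraries lie above and to the right of CD27+ libraries in the left panel, while in the right panel Srgn, from 692 to 1630 CPM, overlaps between CD11b+ and CD27+ libraries.

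Lamp1 and Lamp2, which encode glycoproteins of the granule and lysosome membrane, were the 2 members that were higher in CD27+CD69- than in CD11b+CD69- cells. Lamp1 libraries read 164, 184, 232, 236, 209 and 181 CPM in CD11b+CD69- cells and 328, 385, 265, 435, 230 and 517 CPM in CD27+CD69- cells. Those groups touch only where the lowest CD27+CD69- library (230) falls under the highest CD11b+CD69- library (236). Lamp1 was 1.79-fold higher in CD27+CD69- than in CD11b+CD69- cells (log2 difference 0.84, SE 0.17, interval 0.48 to 1.19, edgeR adjusted p = 0.00115, 6 of 6 above the other median). Lamp2 read 113, 126, 40, 76.4, 94.9 and 81.6 CPM in CD11b+CD69- and 94.2, 285, 233, 313, 210 and 562 CPM in CD27+CD69- cells. It was 3.18-fold higher in the latter (log2 difference 1.67, SE 0.34, interval 0.96 to 2.38, edgeR adjusted p = 0.0011, 6 of 6 above the median), and the groups overlapped through CD27+CD69- replicate 1.

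Between the CD69+ populations neither passed: Lamp1 was at 229 ± 44.1 CPM in CD11b+CD69+ and 261 ± 43 CPM in CD27+CD69+ (log2 difference 0.19, edgeR adjusted p = 0.789), and Lamp2 at 116 ± 30 and 145 ± 82 CPM (0.32, 0.835). Within CD27+ cells, CD69+ libraries had less of both than CD69- libraries, with log2 differences of -0.46 for Lamp1 and -0.96 for Lamp2, with unadjusted p of 0.0116 and 0.00734 and adjusted p of 0.214 and 0.167 (edgeR). Lamp2 passed there without CD27+CD69+ replicate 6, which read 300 CPM where the other 5 read 84.8 to 171 (log2 difference -1.31, edgeR adjusted p = 0.0155). Lamp2 counts were 46.2 ± 20.2%, 54.4 ± 26.2%, 77.2 ± 27.2% and 54.1 ± 23.2% of Lamp1 counts in the 4 populations, ranges that overlapped.

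Levels of Lamp1 and Lamp2 are given here beside the marker sums of other cells, library by library. CD27+CD69- replicate 6 had the most Lamp1 (517 CPM), the most Lamp2 (562 CPM), the highest melanoma sum (5730 CPM), a fibroblast sum of 4180 CPM and the lowest NK sum (3960 CPM), and its Prf1, Nkg7, Srgn and Unc13d were the lowest of any library. Without it, Lamp1 still differed by 0.71 (adjusted p = 0.00467) and Lamp2 by 1.36 (0.00525) between CD27+CD69- and CD11b+CD69- cells by edgeR. CD27+CD69- replicate 5, which had no fibroblast marker count but 137 CPM of melanoma markers, had 230 CPM of Lamp1 and 210 CPM of Lamp2. Its 4 endothelial markers (Pecam1, Cdh5, Kdr, Emcn) summed to 220 CPM, against 42.1 to 84.2 CPM in the rest of its group. In the other populations Pecam1 alone of these had counts, at up to 139 CPM. T cell markers of CD27+CD69- replicate 5 summed to 360 CPM, in a group that ran from 244 to 1050 CPM. CD27+CD69- replicate 1 had a fibroblast sum of 1810 CPM, with 328 CPM of Lamp1 but 94.2 CPM of Lamp2. CD27+CD69+ replicate 6, with fibroblast and melanoma sums of 5.78 and 17.3 CPM, had 341 CPM of Lamp1 and 300 CPM of Lamp2, above several CD27+CD69- libraries. In that library T cell markers summed to 602 CPM, the lowest of a group that ran up to 1450 CPM. Its 4 mast cell markers (Cpa3, Tpsb2, Mcpt4, Kit) summed to 103 CPM, the highest of a group that ran from 6.54 CPM. With CD27+CD69- replicate 5 as the only library of its group, assumed to vary like the others, the Lamp1 difference was 0.21 and the Lamp2 difference 1.26. In that fit Prf1 differed by -2.34 and Nkg7 by -0.83. Macrophage markers summed to 14.2 to 53.7 CPM in 5 CD27+CD69- libraries and to 238 CPM in replicate 6, with C1qb, C1qc and Mrc1 at 0 in the group. The part of these other cells in the Lamp1 and Lamp2 levels was not tested.

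**Figure D3:**
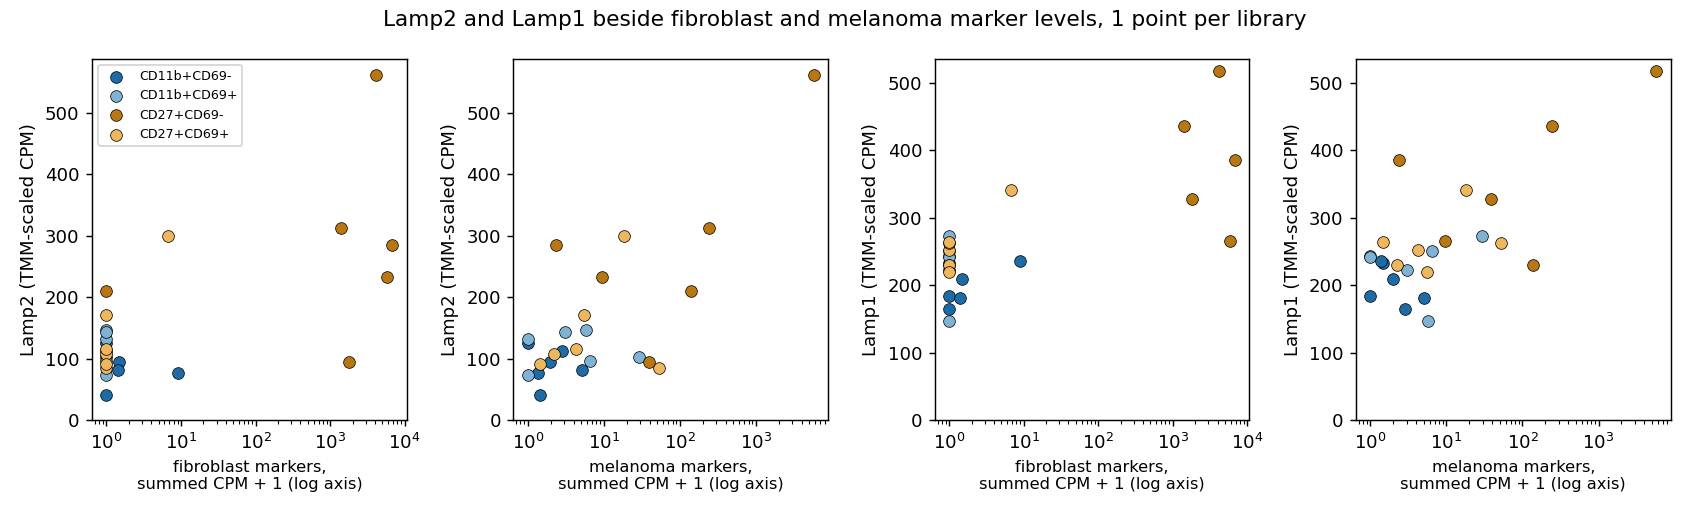
Lamp2 and Lamp1 (y axes, TMM-scaled CPM, linear from 0) against the summed CPM + 1 of 6 fibroblast or 6 melanoma markers (x axes, log), 1 point per library coloured by population. The 5 CD27+CD69- libraries with fibroblast sums of 1410 CPM or more include the highest Lamp1 (517) and Lamp2 (562), and the sixth, at 0, has 230 and 210.

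Of the 4 genes of docking, priming and fusion, Unc13d and Stx11 were lower in CD27+CD69- than in CD11b+CD69- cells, and Rab27a and Stxbp2 passed in no comparison. Unc13d, which encodes the priming factor MUNC13-4, was at 107 ± 25.6 CPM (68.2 to 147, median 106), 98 ± 32.3 (59.1 to 151, median 100), 42.1 ± 26.3 (6.6 to 83.3, median 37.3) and 57.1 ± 25.5 CPM (28.4 to 104, median 54.2) in the 4 populations. CD27+ libraries were mostly the lower ones, with some overlap at each CD69 state. In CD69- cells Unc13d was 2.51-fold lower in CD27+ cells (log2 difference -1.33, SE 0.35, interval -2.07 to -0.59, edgeR adjusted p = 0.012, 6 of 6 below the other median), a call that ended without replicate 4 (-1.14, adjusted p = 0.0783). With the fibroblast-bearing libraries left out, which leaves 1 library in the group, the difference was -1.31. In CD69+ cells the difference was -0.78 (interval -1.51 to -0.05, unadjusted p = 0.034, edgeR adjusted p = 0.37).

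Stx11, the SNARE protein of the final fusion step, was at 136 ± 35.5 CPM (89.1 to 175, median 149), 122 ± 37.2 (74 to 188, median 116), 73.9 ± 24.3 (40.4 to 106, median 79.6) and 79.5 ± 21.4 CPM (49.1 to 97, median 90.7) in the 4 populations. The CD27+ and CD11b+ groups overlapped at both CD69 states. It was 1.83-fold lower in CD27+CD69- than in CD11b+CD69- cells (log2 difference -0.87, SE 0.24, interval -1.38 to -0.37, edgeR adjusted p = 0.0155, 6 of 6 below the other median). CD27+CD69- replicate 1, at 106 CPM, was above the lowest CD11b+CD69- library, at 89.1 CPM. Leaving out replicate 2, 3, 4 or 5 ended that call (log2 difference from -0.87 to -0.74, edgeR adjusted p from 0.0511 to 0.067). With the fibroblast-bearing libraries left out, which leaves 1 library in the group, the difference was -0.87. Between the CD69+ populations it differed by -0.62 (interval -1.12 to -0.11, unadjusted p = 0.0163, edgeR adjusted p = 0.257).

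Stxbp2, which encodes the chaperone of syntaxin-11, had means of 223 ± 48.4, 210 ± 61.3, 247 ± 75.6 and 224 ± 23.1 CPM in the 4 populations. All its groups overlapped, and no comparison passed. The interval of its CD27+ minus CD11b+ difference was -0.26 to 0.57 in CD69- and -0.32 to 0.51 in CD69+ cells, which leaves out a fall of the size of Stx11 in CD69- cells. As a share of Stxbp2 counts, Unc13d counts were 50 ± 15.5% and 55.9 ± 42.2% in CD11b+ cells (without and with CD69), against 16.1 ± 7.84% and 25.5 ± 10.7% in CD27+ cells. Rab27a, the small GTPase that docks granules, was the member with the fewest counts, 6 to 95 per library. Its means were 22 ± 9.47, 29.1 ± 11.7, 16 ± 9.49 and 18 ± 7.08 CPM. The coefficient of variation between libraries was 39.4 to 59.2%, where counting error alone would give 12.6 to 18.3% for 1 library. No Rab27a comparison passed, and its intervals were wide, from -1.60 to 0.21 for CD27+ minus CD11b+ in CD69+ cells. Its exons share 149 bases (3.84%) with the predicted gene Gm27186 on the same strand, so reads there cannot be assigned to 1 of them even by strand. The exons of Lamp1 share 249 bases (9.31%) with Grtp1 on the other strand, where reads cannot be told apart without strand.

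Lyst, the large adaptor whose loss gives giant granules, had means of 39.9 ± 20.1 CPM (18 to 66.2), 46.6 ± 18.2 (24.4 to 66.7), 75.8 ± 20.7 (41.4 to 105) and 62.1 ± 30.1 CPM (30.8 to 105) in the 4 populations. All groups overlapped. Its CD27+ minus CD11b+ difference in CD69- cells was 0.92 (SE 0.35, interval 0.19 to 1.66, unadjusted p = 0.0142, edgeR adjusted p = 0.0907). It passed when genes were limited to a mean of at least 50 CPM (0.98, adjusted p = 0.0395) or without CD11b+CD69- replicate 1 (1.12, 0.0422). Per kilobase of exon, Lyst ranked lowest or next to lowest of the 10 in every population.

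Set side by side, the comparison of CD27+ with CD11b+ cells without CD69 called 6 of the 10 members, 4 lower (Prf1, Nkg7, Unc13d, Stx11) and 2 higher (Lamp1, Lamp2). Of all genes, 12.4% were called, 4.92% lower and 7.46% higher. With the fibroblast-bearing libraries left out, 1 library is left in the CD27+CD69- group. In that fit the differences were -2.34 (Prf1), -0.83 (Nkg7), -1.31 (Unc13d), -0.87 (Stx11), 0.21 (Lamp1) and 1.26 (Lamp2). With all libraries, the members' median difference was -0.37, against 0.05 over all genes. With CD69, 2 of the 10 were called, both lower (Prf1, Nkg7), where 0.911% of all genes were called lower, 0.987% higher and 1.90% in either direction, and the members' median was -0.24 against 0.02. The 2 comparisons use different libraries. In each, Prf1 and Nkg7 were the members whose groups did not overlap, both lower, where 2.76% and 1.03% of all genes were lower without overlap.

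The comparisons by CD69 called fewer. In CD11b+ cells 1 of 10 members passed, Prf1, lower, where 1.10% of all genes were called lower, 1.64% higher and 2.74% in either direction. Prf1 and Nkg7 were lower there without overlap, as were 1.59% of all genes. In CD27+ cells 0 of 10 passed in edgeR, where 1.85% of all genes did (0.550% higher, 1.30% lower). There Nkg7, Srgn, Lamp1 and Lamp2 ranked 570, 240, 571 and 463 of 10536 genes by p, each at an unadjusted p under 0.05. DESeq2 and limma-voom each called 1 member, Srgn. No share of all genes is given for those tools or for unadjusted p. Srgn was higher there without overlap, as were 0.731% of all genes. Member medians were 0.05 and 0.08, against 0 and -0.01 over all genes. The comparisons by CD69 and those by CD27 share libraries with each other, and each is given by its own values.

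**Figure D4:**
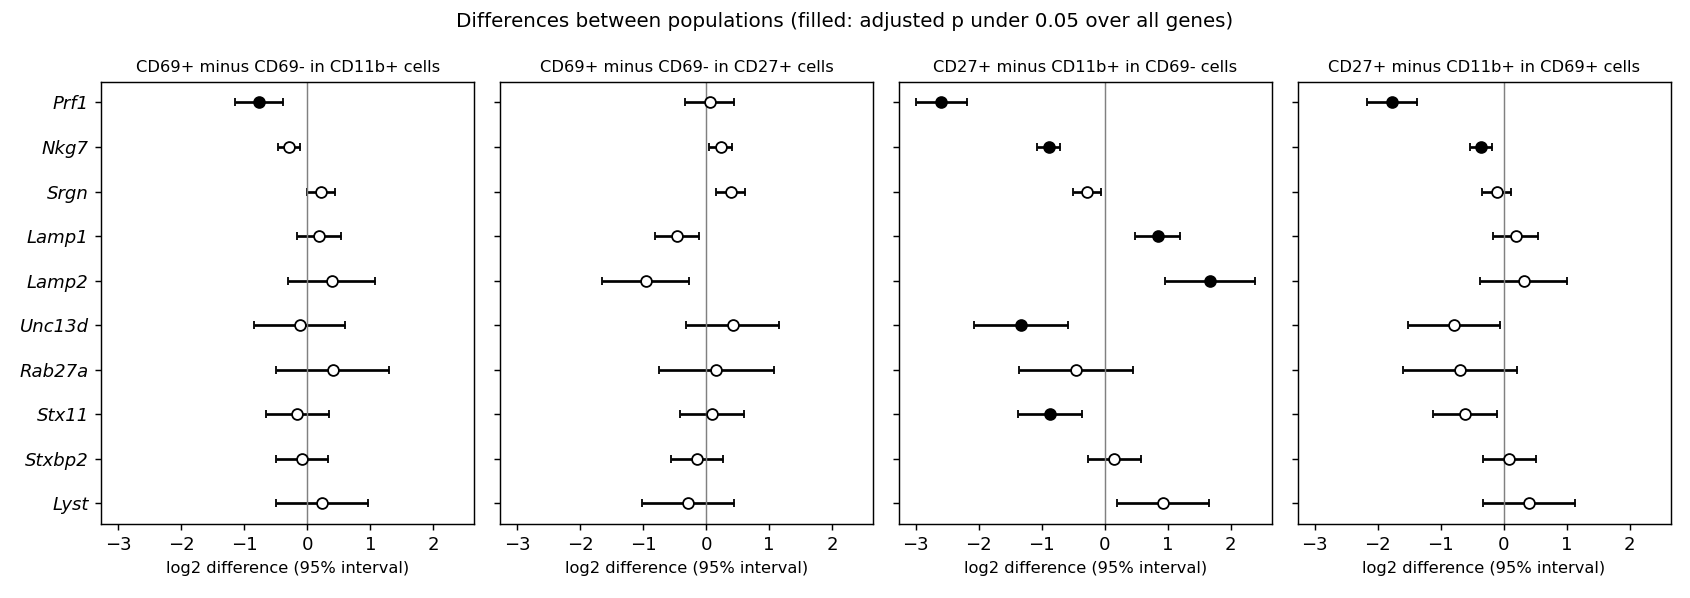
Log2 difference (x axis) of each member (rows) in the 4 comparisons (panels), with 95% intervals; filled points passed an adjusted p of 0.05 over all 10536 genes. Prf1 and Nkg7 are filled on the lower side in both panels of CD27+ against CD11b+ cells, and Lamp1 and Lamp2 on the higher side in CD69- cells alone.

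Around the 10 members, 85 further genes of the granule pathway were followed in 5 lists, of which 82 were tested. The lists were chosen with earlier results of these data known, so counts set beside the shares of all genes are a description, not a test. Without CD69, 19 of the 82 were lower in CD27+ than in CD11b+ cells and 3 were higher by edgeR (median -0.21, against 0.05 over all genes), where 4.92% of all genes were called lower and 7.46% higher. These calls use the fibroblast-bearing CD27+CD69- libraries, without which 1 library is left in that group, and the part of other cells in them was not tested. Cargo and regulators of cargo gave 8 lower and 2 higher of 15, with a median of -0.82. The smallest p belonged to Gzma and Gzmb, the main granzymes, with log2 differences of -1.70 (SE 0.11, edgeR adjusted p = 4.84e-11) and -3.13 (SE 0.29, 8.04e-08). Serpinb9, an inhibitor that shields the killer cell from granzyme B, fell by 1.15 (SE 0.13, edgeR adjusted p = 3.24e-07). Fasl, the death ligand kept in the granule membrane, fell by 1.06 (SE 0.12, edgeR adjusted p = 6.52e-07), and Ctsd, a lysosomal protease, fell by 0.85 (SE 0.09, 3.02e-07).

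Transport gave 2 lower and 1 higher of 15 in that comparison. Its leading gene was Sytl3, which encodes a synaptotagmin-like protein of the family that binds RAB27A. Sytl3 was at 318 ± 28.4, 165 ± 25.9, 92 ± 43.3 and 87.5 ± 14.7 CPM in the 4 populations, and fell by 1.78 from CD11b+CD69- to CD27+CD69- cells (SE 0.22, edgeR adjusted p = 1.81e-06). Cytoskeleton genes, which shape the synapse and clear actin for the granule, gave 8 lower and 0 higher of 16 (median -0.43), by edgeR. Those calls rest on the fibroblast-bearing libraries too, and the part of other cells in them was not tested. Biogenesis gave 1 lower of 20 (median -0.06), a share near the 4.92% of all genes. The fusion list, the relatives of Stx11 and Stxbp2, gave 0 of 16 in edgeR (5 at an unadjusted p under 0.05), 0 in DESeq2 and 0 in limma-voom, with a median of -0.09. No share of all genes is given for unadjusted p.

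Between the CD69+ populations 7 of the 82 were lower in CD27+ cells and 0 higher by edgeR (median -0.08, against 0.02 over all genes), where 0.911% of all genes were called lower and 0.987% higher. Of these, 6 were cargo and 1 was transport. Gzma (log2 difference -1.90, SE 0.11, edgeR adjusted p = 3.7e-12) and Gzmb (-2.28, SE 0.28, 1.66e-05) had the largest. Ctsd (-0.56, adjusted p = 0.000528 by edgeR), Serpinb9 (-0.70, 0.00131), Sytl3 (-0.91, 0.0194) and Serpinb6b (-0.52, 0.0265) followed. The fusion list gave 0 of 16 in edgeR (0 at an unadjusted p under 0.05), DESeq2 and limma-voom. The cytoskeleton list gave 0 of 16 in the 3 tools (1 at an unadjusted p under 0.05 in edgeR). Here too, no share of all genes is given for unadjusted p.

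By CD69, 3 of the 82 passed in CD11b+ cells by edgeR, a share near the 2.74% of all genes it called there. DESeq2 called 9 and limma-voom 5, tools for which no share of all genes is given here. Gzmc, a granzyme, was higher in CD69+ libraries at 272 ± 142 CPM against 13.8 ± 13.3 (log2 difference 4.29, SE 0.76, edgeR adjusted p = 0.00162). Fasl (-0.55, SE 0.12, edgeR adjusted p = 0.00844) and Sytl3 (-0.95, SE 0.21, 0.01) were lower, next to Prf1. In CD27+ cells 7 passed by edgeR, 5 higher and 2 lower, where 0.550% of all genes were called higher and 1.30% lower. Cst7, the inhibitor cystatin F, was higher by 1.12 (SE 0.15, edgeR adjusted p = 8.29e-05), Gzmc by 4.70 (SE 0.77, 0.00107), Actr2, of the actin-branching complex, by 0.77 (SE 0.15, 0.0048) and Ctsw by 0.52 (SE 0.11, 0.00793). Gzma (-0.55, SE 0.11, edgeR adjusted p = 0.00337) and Ctsl (-3.33, SE 0.54, 0.00064) were lower. The calls in CD27+ cells use the fibroblast-bearing CD27+CD69- libraries, without which 1 library is left in that group. Ctsl was at 365 ± 200 CPM in CD27+CD69- libraries, the population with the fibroblast and melanoma markers, and at 11.2 to 36.1 CPM on average in the other 3, and the part of other cells in it was not tested. For the difference of the CD69 differences, 0 of the 82 passed by edgeR (23 at an unadjusted p under 0.05), where 0.579% of all genes were called. DESeq2 called 3 and limma-voom 1, again with no share of all genes given for them or for unadjusted p.

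**Figure D5:**
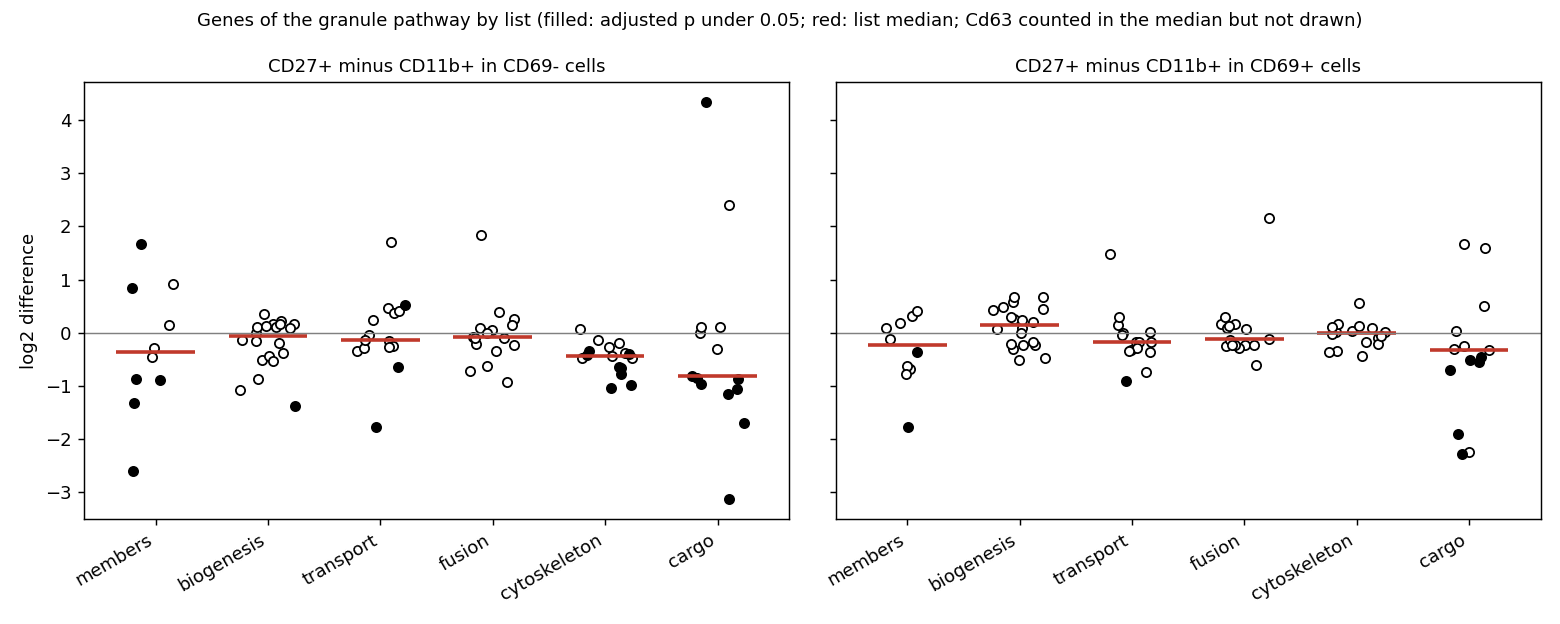
Log2 difference (y axis) of CD27+ minus CD11b+ cells for the 10 members and 5 further lists of granule pathway genes (x axis), in CD69- (left) and CD69+ cells (right); each point is a gene, filled where adjusted p was under 0.05, and red lines are list medians, with Cd63 left off the drawing. Filled points lie mostly below 0 in the cargo list in both panels and in the cytoskeleton list in the left panel alone, and none lie in the fusion list.

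The genes most like Prf1 across the 24 libraries, by Pearson correlation of log2(CPM + 1) among 3973 genes of at least 50 CPM on average, were Irf8 (r = 0.981), Ctsd (0.967), Gzmb (0.948), Adgre5 (0.939) and Sytl3 (0.936). Irf8, a transcription factor, was at 2140, 1320, 491 and 487 CPM on average in the 4 populations, highest in CD11b+CD69- as Prf1 was, with the 2 CD27+ means close to each other. The points share populations and libraries, so these correlations describe mostly the differences between populations. After the population means were taken out, Irf8 was still at r = 0.755 and Sytl3 at 0.75, but none of the 5 was among the 5 highest. By Spearman's rank correlation 3 of the 5 stayed. For Nkg7 the 5 were Fcer1g (r = 0.958), Ncr1 (0.942), Klrb1c (0.937), Id2 (0.935) and Klra9 (0.931). Fcer1g, the signalling adaptor of activating NK receptors, kept r = 0.92 within populations, and it was 1 of 5 that stayed by that measure, against 3 by Spearman. CD27+CD69- replicate 6, lowest in Prf1, Nkg7 and the NK sum (3960 CPM), is among the points of both genes. The part of that library, and of NK content, in these correlations was not tested. Klra9 and Gzmb belong to families of related genes, and whether reads were split among relatives was not tested.

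Among the 45 pairs of members, correlations over the 24 libraries ran from -0.79 to 0.91 with a median of -0.05, and 20 were positive. Prf1 and Nkg7 had the highest (0.91), which came to 0.37 within populations. Prf1 and Unc13d (0.77, within 0.73) and Unc13d and Stx11 (0.81, within 0.67) were high by both measures. Nkg7 and Srgn had 0.58, and 0.79 within populations. Lamp2 ran opposite to Unc13d (-0.79, within -0.65) and to Prf1 (-0.68, within -0.60). CD27+CD69- replicate 6, lowest in Prf1 and Unc13d and highest in Lamp2, is among these points.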

How the data were processed

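The authors deposited raw read counts per Ensembl gene in 24 libraries, not normalized. Per the labels' protocols, RNA of 100 sorted cells was copied to full-length cDNA (SMART-Seq v4, Nextera XT), which keeps no strand and adds no molecular identifiers. The submitters' processing notes name GRCm38, HTSeq and Picard. The aligner, annotation release and strand setting were not given in the sources used here.

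Of 53465 gene identifiers, 10536 passed edgeR's filterByExpr (minimum count 10). Entries without a symbol (3433, 0.174% of counts) stayed in. One fit of 4 group means (edgeR 4.0.16, R 4.3.3, TMM, robust quasi-likelihood F-tests) gave all comparisons, with Benjamini-Hochberg adjustment over all genes, a threshold of 0.05, and 95% intervals from the SE with 20 residual degrees of freedom. Lengths and positions are from GENCODE M21. Scripts were tested on simulated counts.

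Alternatives were DESeq2 1.42.0, its size factors in edgeR, limma-voom (limma 3.58.1), other filters, the 2 groups alone, a replicate block and left-out replicates; leaving out single libraries, and CD27+CD69- libraries with fibroblast marker counts, was chosen after seeing the data. Members and gene lists were chosen with earlier results of these data known. Named are all members, at most 6 further pathway genes per comparison by smallest p among those called, the 5 genes most like Prf1 and Nkg7, and 3 sort markers. Motifs were chosen after values were seen.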

Additional observations from a re-analysis of the deposited data

Results flagged for a closer look

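In CD27+CD69+ cells, the Lamp1 level of replicate 6 (341 CPM) stood apart from the other 5 libraries, the nearest of which was at 264 CPM. The gap was 0.638 of the whole range, above Dixon's 95% limit for 6 samples. It was the 1 such case in 40 groups of 6 libraries (10 genes in 4 populations), and chance gives about 1 in 20. The same library had the most Lamp2 of its population, 300 CPM, with fibroblast markers at 5.78 CPM and melanoma markers at 17.3 CPM.

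The CD69+ minus CD69- difference of Nkg7 was higher in CD27+ than in CD11b+ cells by 0.52 on the log2 scale (edgeR adjusted p = 0.0387). Nkg7 was lower with CD69 in CD11b+ cells and higher with CD69 in CD27+ cells, by -0.29 and 0.23, and neither passed on its own by edgeR (adjusted p = 0.0612 and 0.214). The CD11b+ difference passed in 7 of the alternative analyses other than leaving out 1 library or replicate number, DESeq2 (0.0127) and limma-voom (0.00728) among them. The call ended in 13 of the 24 fits that each left out 1 library.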

How the results depend on the processing

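Calls per comparison, of 10 members, were counted under each alternative. No share of all genes is given for the alternatives. A change in these counts therefore cannot be told apart from a change in calls over all genes. With any difference among the populations, 7 were called, 5 to 7 without 1 replicate number. For CD27+ minus CD11b+ cells the counts were 6 (4 to 7) in CD69- and 2 (1 to 2) in CD69+ cells. For CD69 they were 1 (0 to 2) in CD11b+ and 0 (0 to 0) in CD27+ cells, and 1 (0 to 1) for the difference between those. Leaving out 1 library gave 0 to 2 in CD27+ cells by CD69, 0 to 1 for the difference between the CD69 differences, and 1 to 2, 6 to 7, 1 to 2 and 7 elsewhere. With only CD27+CD69- replicate 5 kept, 1 library was left in its group, so counts of calls are not given for that fit. Without a filter on low counts, the difference of CD69 differences and CD69 in CD11b+ cells gave 0 each. CD69 in CD11b+ cells gave 2 (Prf1, Nkg7) with DESeq2 size factors, DESeq2, limma-voom, a mean of at least 50 CPM, the 2 groups alone and the replicate block, and CD69 in CD27+ cells gave 1 with DESeq2 and limma-voom. The causes were not tested.

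Reversed signs concerned values that were not called. With CD27+CD69- replicate 5 alone, Stxbp2 turned to -0.24 (CD27+ against CD11b+, CD69-), 0.33 (difference of CD69 differences) and 0.25 (CD69 in CD27+). In that fit Lamp1 and Prf1 turned to 0.17 and -0.20 (CD69 in CD27+). In limma-voom the Stxbp2 difference of CD69 differences was 0.00. Leaving out 1 library or replicate number moved Stxbp2 between -0.10 and 0.33 (CD27+ against CD11b+, CD69-) and between -0.07 and 0.22 (CD69+). Its other ranges were -0.23 to 0.09 (difference of CD69 differences), -0.22 to 0.05 (CD69 in CD11b+) and -0.25 to 0.01 (CD69 in CD27+). The same leave-outs moved Rab27a between -0.68 and 0.11 (difference of CD69 differences) and between -0.24 and 0.54 (CD69 in CD27+). They moved Lamp2 between -0.03 and 0.51 (CD27+ against CD11b+, CD69+). For CD69 in CD11b+ cells they moved Lyst between -0.05 and 0.43 and Unc13d between -0.31 and 0.10. For CD69 in CD27+ cells they moved Prf1 between -0.08 and 0.26 and Stx11 between -0.02 and 0.23. Rab27a has no value under the minimum of 50 CPM.

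The labels do not say what a replicate number marks, and the rule for pairing, every same-numbered pair over 0.1, was not met. Same-numbered libraries correlated at -0.05 to 0.36 (median 0.02, 2 of 36 pairs over 0.1) and others at -0.318 to 0.318 (median -0.002, 6 of 180 over 0.1). As a hint from the data, not the design, 9 of 24 libraries correlated best with their own number, 4 of 4 for number 4, 3 of 4 for number 6, 2 of 4 for number 1 and 0 for the others. With the replicate block, Nkg7 passed for CD69 in CD11b+ cells (-0.29, edgeR adjusted p = 0.0433), and no other member's call changed.

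For the further pathway genes, counts moved by over 1.5 times in CD11b+ cells by CD69, where edgeR called 3, against 9 with DESeq2, 5 with limma-voom, 6 at a mean of at least 50 CPM and 7 with the 2 groups alone. Shares of all genes are given for the main edgeR fit alone. With CD27+CD69- replicate 5 alone in its group, counts of calls are likewise not given. For the difference of CD69 differences, 0 were called in edgeR and 1 with the replicate block. Rab27a had the fewest counts of the members, at 6 to 95 per library.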
